A study of Rattus norvegicus with 16 samples.

Results

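The genes examined were those that build, sulfate and trim heparan sulfate and chondroitin sulfate, with the syndecans and glypicans that carry such chains and the hyaluronan synthases, in rat myelinating cultures exposed to FGF2 ligands. They were picked by gene symbol alone (the families Papss, Xylt, B3gat, Ext and Extl, Ndst, Glce, Hs2st, Hs3st, Hs6st, Sulf, Csgalnact, Chsy, Chpf, Dse, Chst, Sdc, Gpc and Has), with earlier results of these data known when the families were chosen. The symbols found 52 genes of the 15236 that had a transcript cluster (the set of probes that stands for a gene on the array) with a single symbol, and each of the 52 had 1 cluster. Xylt1, Sulf1 and Ndst4 were named only by the annotation that accompanies the study. A cluster that carried both Hs3st3b1 and Hs3st3a1 was left out, and these paralogs are close in sequence, so cross-hybridisation between their own clusters was not tested. Among the genes of these families that were not analysed here are Ext1, Ext2, Hs6st1, Gpc1, Gpc5, Gpc6 and Chst15.

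The cultures came from Sprague-Dawley rats and combined spinal cord cells of embryonic day 15.5 with a layer of astrocytes grown from striatal neurospheres of postnatal day 1 pups. RNA of whole cultures was hybridised to expression arrays in 4 groups of 4 arrays: wtFGF2, humanFGF2 (recombinant human FGF2), F2V2 (FGF2 that lacks its N-terminal 26 amino acids and is described as selective for FGF receptor 1) and Control, which received no ligand. Ligands were added at 18 days in vitro and the cultures were collected 24 h later, with 100 ng/ml used for humanFGF2 and F2V2. The sources used here give neither the dose of wtFGF2 nor how that preparation differs from humanFGF2. The arrays of a group are described both as independent cultures and as technical replicates, so the p-values below measure the spread between arrays, which may be technical. In RNA of a whole culture, fewer cells of a type and less RNA per cell cannot be told apart.

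Heparan sulfate and chondroitin sulfate are long sugar chains built onto a core protein in the Golgi from a shared linker, then sulfated with sulfate drawn from the donor PAPS. FGF2 binds heparan sulfate, which acts as its co-receptor at FGF receptors, and the position of the sulfate groups governs how well FGF ligands bind. In nervous tissue chondroitin sulfate and hyaluronan make up much of the extracellular matrix around axons and progenitors, and reactive astrocytes are known to secrete both.

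The deposited values were log2 expression, with array medians over the tested clusters between 7.32 and 7.41 and correlations between arrays of a group between 0.9957 and 0.9985, and no array stood apart in these measures. Of the astrocyte, oligodendrocyte, progenitor, neuron and microglia marker lists, 5 of 9, 6 of 9, 6 of 6, 5 of 8 and 7 of 7 genes were measured, and their group means exceeded a log2 value of 5, taken here as the floor of dim signal, apart from 1 astrocyte gene in humanFGF2 arrays. The mean of the 6 oligodendrocyte markers lay at 9.52 to 9.77 in humanFGF2 arrays, 10.15 to 10.33 in F2V2 arrays, 9.93 to 9.97 in wtFGF2 arrays and 10.52 to 10.72 in Control arrays. The mean of the 5 astrocyte markers lay at 10.42 to 10.50 in humanFGF2 arrays, 10.79 to 11.04 in F2V2 arrays, 10.65 to 10.87 in wtFGF2 arrays and 11.32 to 11.55 in Control arrays. The mean of the 2 cell cycle genes measured of 4 lay at 8.87 to 9.20 in humanFGF2 arrays, 8.70 to 8.99 in F2V2 arrays, 8.74 to 9.13 in wtFGF2 arrays and 7.79 to 7.99 in Control arrays. The mean of the 5 neuron markers lay at 11.30 to 11.38 in humanFGF2 arrays, 11.32 to 11.45 in F2V2 arrays, 11.27 to 11.45 in wtFGF2 arrays and 11.59 to 11.66 in Control arrays. The mean of the 6 progenitor markers lay at 9.42 to 9.56 in humanFGF2 arrays, 9.91 to 10.07 in F2V2 arrays, 9.81 to 9.93 in wtFGF2 arrays and 9.91 to 10.08 in Control arrays. This mean hides a split. Olig1 and Olig2 lay above Control, by 0.18 and 0.45 on the log2 scale with humanFGF2 and by 0.60 and 0.73 with F2V2. Pdgfra, Cspg4, Gpr17 and Sox10 lay at or below it with both, Gpr17 furthest (-1.71 and -0.89). Microglia markers averaged 7.86 to 8.11 in humanFGF2 arrays, 8.18 to 8.22 in F2V2 arrays, 7.98 to 8.31 in wtFGF2 arrays and 7.79 to 8.13 in Control arrays. The microglia list was split too. Itgam, Tmem119 and Cd68 lay above Control, by 0.43, 0.48 and 0.42 with humanFGF2 and by 0.63, 0.75 and 0.38 with F2V2. P2ry12 lay below it with both (-0.50 and -0.25). Aif1, Csf1r and Cx3cr1 lay at -0.39 to -0.03 with humanFGF2 and 0.09 to 0.15 with F2V2. Rgs5, a pericyte marker, was 7.29-fold higher with humanFGF2 and 3.01-fold higher with F2V2. It went against most of its list: the median log2 difference from Control of the 7 fibroblast and pericyte markers was -0.33 with humanFGF2 and -0.05 with F2V2. Pdgfrb, of the same list, differed by -0.53 with humanFGF2 and -0.39 with F2V2. Mean levels of the astrocyte, oligodendrocyte and neuron markers were thus lower and those of the cell cycle genes higher in every ligand array than in every Control array, those of the progenitor markers were lower with humanFGF2, and those of the microglia markers were above every Control array with F2V2. Of the astrocyte markers, Gjb6 lay furthest below Control (-2.48 with humanFGF2 and -1.76 with F2V2). The others differed by -0.83 to -0.44 and by -0.31 to -0.14, and Gjb6 alone was called with F2V2. Of the neuron markers, Tubb3 differed by 0.04 with humanFGF2, while the others lay at -0.48 to -0.17. The part of the marker lists in the results below was not tested.

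A minority of the 52 genes changed by 1.4-fold or more, among them a PAPS synthase, a syndecan, a hyaluronan synthase and some of the enzymes that sulfate chondroitin. A gene was called when limma gave a Benjamini-Hochberg adjusted p under 0.05 over the 16377 named clusters tested and the difference was at least 1.4-fold. With humanFGF2, 5 of the 52 genes rose and 9 fell against Control, or 26.9%, against 19.1% of all tested clusters (10.4% higher and 8.72% lower). With F2V2, 6 rose and 5 fell, or 21.2%, against 9.38% of all tested clusters (5.74% higher and 3.64% lower). By adjusted p alone, with no fold threshold, 36 of the 52 genes passed with humanFGF2, against 46.0% of all tested clusters, and 25 with F2V2, against 33.5%. The genes that rose with both ligands were Sdc1, Has2, Chst3, Chst11 and Xylt1, and Chst7 rose with F2V2. The genes that fell with both were Papss2, Chst9, Extl1, Ndst4 and Hs3st3b1, while Sulf1, Ndst3, Gpc3 and Gpc4 were called lower with humanFGF2. The median log2 difference over the 52 genes was 0.05 with humanFGF2 and 0.01 with F2V2, beside 0.02 and 0.01 over all tested clusters. Both ligands share the Control arrays. Chst4, Has1, Has3 and Hs3st6 had group means under the dim floor in every group.

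**Figure D1:**
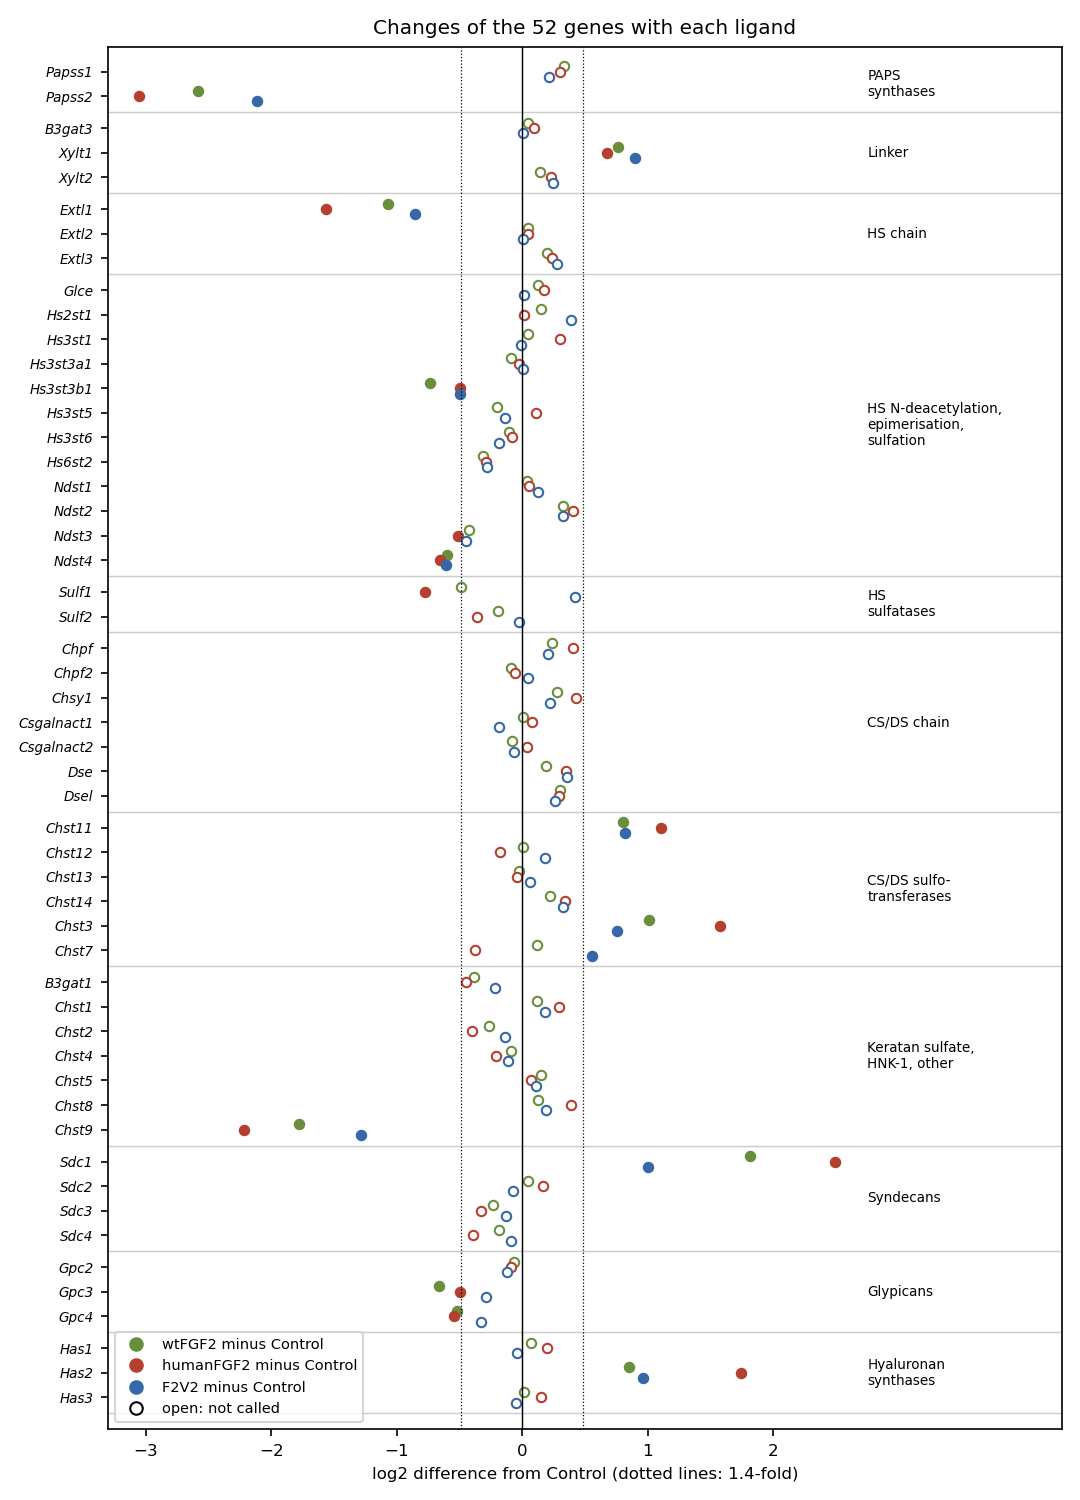
Log2 difference from Control (horizontal axis) of each of the 52 genes, grouped by role, for wtFGF2, humanFGF2 and F2V2 (filled: called, open: not called, dotted lines: 1.4-fold). Papss2, Chst9 and Extl1 lie far to the left and Sdc1, Has2 and Chst3 far to the right with each ligand, while the 7 chondroitin and dermatan sulfate chain genes hold no filled point.

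The promoter windows of the genes that moved furthest in each direction with humanFGF2, among those with a window cut within 500 bases of the 5′ end of the gene record, are shown for their base composition and GC boxes, the GGGCGG motif that Sp1 family factors bind. They run from 250 bases before to 50 bases after the start of 1 RefSeq transcript on the rat build GRCr8, written 5′ to 3′ on the strand of the gene, with every GC box, read on either strand, in capitals. Sdc1 lies at chr6:37281791-37282090 on the plus strand, Chst3 at chr20:28694477-28694776 on the minus strand, Papss2 at chr1:239867463-239867762 on the plus strand and Extl1 at chr5:151872781-151873080 on the minus strand. The start used was that of the gene record for Sdc1 and Extl1, and lay 116 bases inside it for Papss2 and 450 bases inside it for Chst3. Chst9, which fell further than Extl1, is not shown because its window was cut 34438 bases inside the gene.
Sdc1: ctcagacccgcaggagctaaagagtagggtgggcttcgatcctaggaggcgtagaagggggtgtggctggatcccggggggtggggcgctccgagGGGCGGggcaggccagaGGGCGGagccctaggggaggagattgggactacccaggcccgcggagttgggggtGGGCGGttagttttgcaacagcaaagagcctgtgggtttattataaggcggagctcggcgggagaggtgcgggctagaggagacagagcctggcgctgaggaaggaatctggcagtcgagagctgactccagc
Chst3: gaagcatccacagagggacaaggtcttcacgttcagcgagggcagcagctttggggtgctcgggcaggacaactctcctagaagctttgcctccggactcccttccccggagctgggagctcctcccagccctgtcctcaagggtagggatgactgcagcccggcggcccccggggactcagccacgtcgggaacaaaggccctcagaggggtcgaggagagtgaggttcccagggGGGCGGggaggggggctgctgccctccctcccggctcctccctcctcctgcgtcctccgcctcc
Papss2: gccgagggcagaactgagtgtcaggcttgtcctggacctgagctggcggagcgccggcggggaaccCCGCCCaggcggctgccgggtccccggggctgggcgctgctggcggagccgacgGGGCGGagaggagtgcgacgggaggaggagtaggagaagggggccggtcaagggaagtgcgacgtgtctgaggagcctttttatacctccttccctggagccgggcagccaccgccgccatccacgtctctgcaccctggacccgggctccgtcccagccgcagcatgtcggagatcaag
Extl1: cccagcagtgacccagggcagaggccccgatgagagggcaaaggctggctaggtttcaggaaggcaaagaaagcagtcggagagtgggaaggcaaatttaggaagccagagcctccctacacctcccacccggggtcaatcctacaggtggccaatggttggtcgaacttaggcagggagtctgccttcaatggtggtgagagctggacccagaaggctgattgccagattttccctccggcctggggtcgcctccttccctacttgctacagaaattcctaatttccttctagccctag

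The windows of Sdc1 and Papss2, which moved in opposite directions, held 3 and 2 GC boxes and were 64.7% and 70.3% G or C. Chst3 held 1 box in a window of 68% G or C, and Extl1 held none in a window of 56.7%. A window was matched by symbol for 42 of the 52 genes, and in 7 of the 42 it was cut more than 500 bases inside the gene record. The genes with no match were Chst1, Chst14, Csgalnact1, Csgalnact2, Extl3, Has2, Has3, Ndst3, Sdc2 and Sulf1. At least 1 GC box was found in 28 of the 42 (66.7%), against 33.1% of all 33469 RefSeq windows, and the median G or C content was 65.7% in the 42 windows against 51.7% in all. The full set was not limited to genes tested on the array or to 1 window per symbol, so the 2 sets are unlike. On both strands, the AP-1 motif TGANTCA was found in 1 of the 42 (2.38%, against 7.33% of all windows), the CRE motif TGACGTCA in 2 (4.76%, against 1.83%), the ETS motif CCGGAAGT in 2 (4.76%, against 3.81%) and the TCF motif CTTTGAT in 0 (against 3.63%). No motif searched contains another, and these matches describe letters in a window only.

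The PAPS synthases, which make the sulfate donor of every chain, went apart. Papss2 read 6.75, 6.55, 6.60 and 6.82 on the log2 scale in humanFGF2 arrays, 7.66, 7.42, 7.82 and 7.60 in F2V2 arrays and 9.78, 9.72, 9.66 and 9.78 in Control arrays. No value of either ligand reached the Control range, and the humanFGF2 values all lay below those of F2V2. Papss2 was 8.31-fold lower with humanFGF2 (95% interval of the log2 difference -3.24 to -2.88, limma adjusted p = 1.91e-11) and 4.32-fold lower with F2V2 (adjusted p = 1.74e-09). The direct difference of humanFGF2 and F2V2 was -0.95 (95% interval -1.12 to -0.77, adjusted p = 4.5e-06). Papss1, the other PAPS synthase, read 10.55, 10.62, 10.56 and 10.73 in humanFGF2 arrays, 10.50, 10.56, 10.54 and 10.49 in F2V2 arrays and 10.33, 10.36, 10.32 and 10.24 in Control arrays. Its values also lay apart from Control, but the differences of 0.30 with humanFGF2 (adjusted p = 0.000235) and 0.21 with F2V2 (adjusted p = 0.00606) were under 1.4-fold.

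Of the 3 genes that make the linker, Xylt1 rose, where 10.4% of all tested clusters were called higher with humanFGF2 and 5.74% with F2V2. Xylt1 encodes a xylosyltransferase that puts the first sugar on the core protein, the step that heparan and chondroitin sulfate share. It read 10.57, 10.69, 10.68 and 10.79 in humanFGF2 arrays, 10.91, 10.90, 11.14 and 10.67 in F2V2 arrays and 10.08, 9.95, 9.87 and 10.13 in Control arrays. Both ligands lay above every Control array, by 1.60-fold with humanFGF2 (adjusted p = 3.38e-05) and 1.87-fold with F2V2 (adjusted p = 7.3e-06), and the ligands overlapped each other (difference -0.22, adjusted p = 0.106). Xylt2, the second xylosyltransferase, differed by 0.23 with humanFGF2 (adjusted p = 0.0179) and 0.25 with F2V2 (adjusted p = 0.0171), under 1.4-fold. B3gat3, which adds the last sugar of the linker, differed by 0.10 and 0.01 and was not called. Another 5 listed linker and chain enzymes lie outside the symbol families, and none was called with either ligand. Of all tested clusters, 19.1% were called in either direction with humanFGF2 and 9.38% with F2V2.

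The genes that lengthen and modify heparan sulfate were called only in the downward direction, 1 of 3 chain genes and 3 of 12 modifying genes with humanFGF2 (beside 8.72% of all tested clusters called lower and 10.4% higher), and 1 of 3 and 2 of 12 with F2V2 (beside 3.64% lower and 5.74% higher). With so few genes, the lack of calls upward is a description only. Extl1, a glucosaminyltransferase of the exostosin family, read 6.54, 6.48, 6.62 and 6.71 in humanFGF2 arrays, 7.14, 7.31, 7.39 and 7.33 in F2V2 arrays and 8.10, 8.18, 8.23 and 8.09 in Control arrays. The groups stood in 3 separate bands, with humanFGF2 lowest. Extl1 was 2.95-fold lower with humanFGF2 (adjusted p = 7.18e-10) and 1.81-fold lower with F2V2 (adjusted p = 6.96e-07), and the direct difference of the ligands was -0.71 (adjusted p = 7.56e-06). Its relatives Extl2 and Extl3, of which Extl3 starts heparan sulfate chains, lay within 0.28 of Control with both ligands.

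The N-deacetylase/N-sulfotransferases, which make the first modification of the heparan sulfate chain, were split. Ndst4 read 6.85, 7.08, 6.94 and 6.96 in humanFGF2 arrays, 7.11, 7.21, 6.94 and 6.75 in F2V2 arrays and 7.80, 7.60, 7.56 and 7.47 in Control arrays, 1.57-fold lower with humanFGF2 (adjusted p = 7.15e-05) and 1.53-fold lower with F2V2 (adjusted p = 0.000283). Ndst3 read 8.14, 8.16, 7.96 and 7.98 in humanFGF2 arrays, 8.21, 8.02, 8.29 and 7.98 in F2V2 arrays and 8.64, 8.39, 8.61 and 8.65 in Control arrays. Both genes lay below every Control array with each ligand, and for neither did the ligands separate (differences -0.04 and -0.06). Ndst3 sat at the fold threshold, at -0.51 with humanFGF2 (adjusted p = 0.000184, called) and -0.45 with F2V2 (adjusted p = 0.00102, not called). The call with humanFGF2 was lost without humanFGF2 replicate 3 (-0.48) or humanFGF2 replicate 4 (-0.49), and Ndst3 was called with F2V2 without Control replicate 2 (-0.51) or F2V2 replicate 3 (-0.50). Ndst2 went the other way, at 0.41 with humanFGF2 (adjusted p = 0.000247) and 0.32 with F2V2 (adjusted p = 0.00254), under 1.4-fold, and Ndst1 differed from Control by 0.05 and 0.12.

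Among the O-sulfotransferases of heparan sulfate, Hs3st3b1, which adds the rare 3-O-sulfate, was called lower. It read 8.33, 8.33, 8.40 and 8.41 in humanFGF2 arrays, 8.41, 8.24, 8.46 and 8.34 in F2V2 arrays and 8.87, 8.92, 8.95 and 8.70 in Control arrays. Both ligands gave the same fold of 1.41 below Control (adjusted p = 2.78e-05 with humanFGF2 and 6.69e-05 with F2V2), with a direct difference of 0.00 (95% interval -0.14 to 0.14). A fold so near the threshold lost its call with humanFGF2 without Control replicate 2 (-0.47), Control replicate 3 (-0.46), humanFGF2 replicate 1 (-0.48) or humanFGF2 replicate 2 (-0.48). With F2V2 it lost its call without Control replicate 2 (-0.47), Control replicate 3 (-0.46) or F2V2 replicate 2 (-0.45). Hs2st1, the 2-O-sulfotransferase whose product contributes to FGF2 binding, read 11.42, 11.42, 11.44 and 11.48 in F2V2 arrays and 10.97 to 11.13 in Control arrays, a difference of 0.39 (adjusted p = 3.98e-05) that was under 1.4-fold. In humanFGF2 arrays it differed by 0.02 from Control and by -0.37 from F2V2 (adjusted p = 0.000112). Hs3st1 showed the opposite order, at 0.30 with humanFGF2 (adjusted p = 0.000334) and -0.01 with F2V2.

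The endosulfatases Sulf1 and Sulf2 remove 6-O-sulfate from heparan sulfate at the cell surface, which weakens FGF2 signalling complexes. Sulf1 read 8.09, 7.72, 7.54 and 7.53 in humanFGF2 arrays, 8.72, 8.44, 8.84 and 9.64 in F2V2 arrays and 8.49, 8.86, 8.58 and 8.03 in Control arrays. The humanFGF2 and F2V2 arrays did not overlap, while each overlapped Control. Sulf1 fell 1.71-fold with humanFGF2 (adjusted p = 0.0144), and with F2V2 its difference was 0.42 (95% interval -0.08 to 0.92, adjusted p = 0.199). The direct difference of humanFGF2 and F2V2 was -1.19 (95% interval -1.69 to -0.69, adjusted p = 0.0024), and it was -0.94 without F2V2 replicate 4, the array at 9.64, and still called. The F2V2 difference from Control was 0.17 without that array. Sulf2 differed by -0.36 with humanFGF2 (adjusted p = 0.00057) and -0.03 with F2V2, and the ligands differed by -0.33 (adjusted p = 0.00336).

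The 7 genes that start, lengthen and epimerise chondroitin and dermatan sulfate were not called with either ligand, and 4 of them passed the adjusted p alone with each, where 46.0% of all tested clusters passed with humanFGF2 and 33.5% with F2V2. Chsy1 and Chpf, a chondroitin synthase and its polymerising partner, lay 0.43 and 0.40 above Control with humanFGF2 (adjusted p = 2.78e-05 and 9.13e-05) and 0.22 and 0.21 above with F2V2. Dse and Dsel, which epimerise the chain to dermatan sulfate, lay 0.35 and 0.30 above Control with humanFGF2 and 0.36 and 0.26 with F2V2. The largest difference of this group was thus under 1.4-fold. Csgalnact1 and Csgalnact2, which start the chain, lay between -0.18 and 0.08 from Control.

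Of the 6 sulfotransferases of chondroitin and dermatan sulfate, 2 rose with humanFGF2, where 10.4% of all tested clusters were called higher, and 3 with F2V2, where 5.74% were. Chst3, which adds 6-O-sulfate to chondroitin, read 8.37, 8.44, 8.40 and 8.59 in humanFGF2 arrays, 7.65, 7.73, 7.50 and 7.66 in F2V2 arrays and 7.03, 6.68, 6.99 and 6.81 in Control arrays. The groups formed separate bands with humanFGF2 highest. Chst3 was 2.97-fold higher with humanFGF2 (adjusted p = 5.01e-09) and 1.69-fold higher with F2V2 (adjusted p = 1.35e-05), with a direct difference of 0.82 (adjusted p = 1.42e-05). Chst11, a chondroitin 4-O-sulfotransferase, read 10.98, 10.99, 11.07 and 10.99 in humanFGF2 arrays, 10.68, 10.69, 10.86 and 10.63 in F2V2 arrays and 9.81, 9.86, 10.01 and 9.93 in Control arrays. It was 2.15-fold higher with humanFGF2 (adjusted p = 7.73e-09) and 1.76-fold higher with F2V2 (adjusted p = 4.66e-07), and the ligands differed by 0.29 (adjusted p = 0.00422), which was under 1.4-fold. A 6-O gene, Chst3, and a 4-O gene, Chst11, were thus higher with both ligands. The 6-O gene Chst7 differed by -0.37 with humanFGF2 and 0.55 with F2V2. Chst14, which sulfates dermatan sulfate, differed by 0.34 and 0.33, and Chst12 and Chst13, the remaining 4-O-sulfotransferases, were not called.

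Chst7, a second chondroitin 6-O-sulfotransferase, separated the ligands by direction. It read 8.04, 8.02, 7.87 and 8.14 in humanFGF2 arrays, 8.88, 9.01, 9.16 and 8.71 in F2V2 arrays and 8.33, 8.39, 8.38 and 8.46 in Control arrays. Every F2V2 array lay above the Control range and every humanFGF2 array below it. The F2V2 difference was 0.55 (1.47-fold, adjusted p = 0.00026) and the humanFGF2 difference was -0.37 (1.30-fold, adjusted p = 0.0026, not called). The direct difference of humanFGF2 and F2V2 was -0.93 (95% interval -1.11 to -0.74, adjusted p = 6.73e-06). Without F2V2 replicate 3 the F2V2 difference was 0.48, just under the fold threshold, and the direct difference remained called.

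Chst9 stood out among the 7 sulfotransferases and glucuronyltransferases of keratan sulfate, HNK-1 and other glycans. It encodes a sulfotransferase that acts on N-acetylgalactosamine of glycoprotein sugars. It read 5.34, 4.92, 5.25 and 5.34 in humanFGF2 arrays, 6.12, 5.82, 6.33 and 6.30 in F2V2 arrays and 7.49, 7.56, 7.53 and 7.14 in Control arrays. The fall was 4.65-fold with humanFGF2 (adjusted p = 1.47e-08) and 2.44-fold with F2V2 (adjusted p = 7.07e-06), and the ligands differed by -0.93 (adjusted p = 0.000209). The humanFGF2 mean of 5.21 was close to the dim floor. B3gat1, the glucuronyltransferase of the HNK-1 epitope carried by neural adhesion molecules, differed by -0.45 with humanFGF2 (adjusted p = 0.000219), and Chst2, a keratan sulfate sulfotransferase, by -0.40 (adjusted p = 5.24e-05), both under 1.4-fold.

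**Figure D2:**
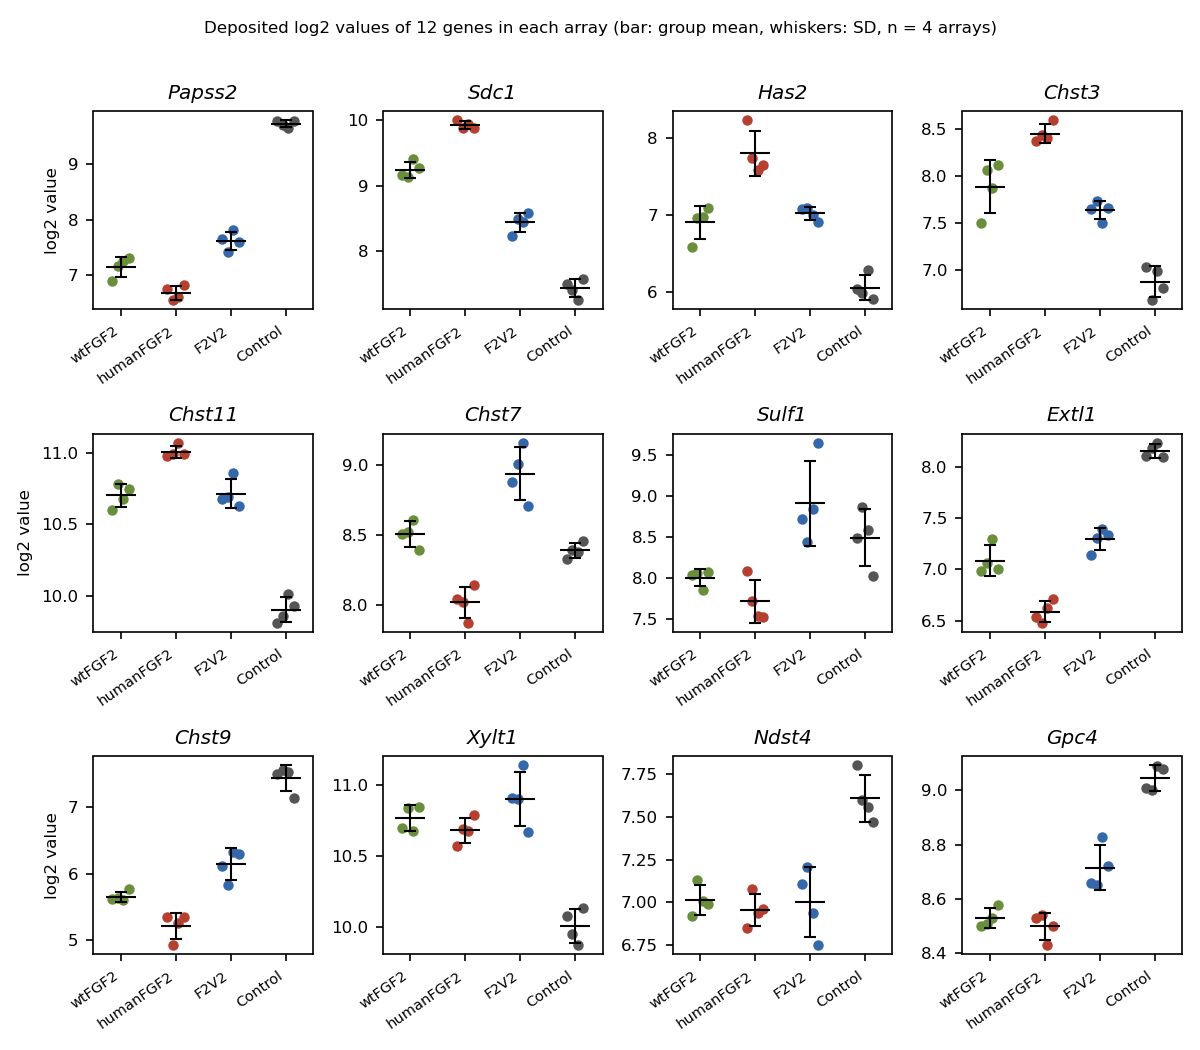
Deposited log2 value (vertical axis) of 12 genes in each array of the wtFGF2, humanFGF2, F2V2 and Control groups (points: arrays, bar: mean, whiskers: SD, n = 4). Papss2, Extl1 and Chst9 are lower and Sdc1, Has2 and Chst3 higher in every ligand array than in every Control array, and in Chst7 the F2V2 arrays (8.71 to 9.16) and humanFGF2 arrays (7.87 to 8.14) lie on either side of Control.

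Of the 4 syndecans, the transmembrane proteins that carry heparan sulfate at the cell surface, Sdc1 rose and the others were not called. Among all tested clusters, 10.4% were called higher with humanFGF2 and 5.74% with F2V2. Sdc1 read 10.00, 9.88, 9.95 and 9.88 in humanFGF2 arrays, 8.24, 8.49, 8.44 and 8.59 in F2V2 arrays and 7.50, 7.41, 7.25 and 7.57 in Control arrays. It was 5.62-fold higher with humanFGF2 (adjusted p = 8e-11) and 2.00-fold higher with F2V2 (adjusted p = 1.1e-06). The direct difference of 1.49 (95% interval 1.32 to 1.67, adjusted p = 9.78e-08) was the largest of the 52 genes in favour of humanFGF2.

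The other syndecans of neural cells showed small shifts. Sdc2 read 11.72, 11.74, 11.73 and 11.82 in humanFGF2 arrays, 11.52, 11.55, 11.40 and 11.59 in F2V2 arrays and 11.49, 11.63, 11.68 and 11.55 in Control arrays, 0.16 above Control with humanFGF2 (adjusted p = 0.0302) and -0.07 with F2V2. Sdc3, the syndecan typical of neurons, read 11.05, 11.07, 11.01 and 11.09 in humanFGF2 arrays, 11.18, 11.24, 11.39 and 11.20 in F2V2 arrays and 11.44, 11.40, 11.38 and 11.31 in Control arrays. Sdc4, found at focal adhesions, read 10.43, 10.35, 10.29 and 10.38 in humanFGF2 arrays, 10.66, 10.55, 10.72 and 10.74 in F2V2 arrays and 10.65, 10.74, 10.79 and 10.85 in Control arrays. Sdc3 and Sdc4 thus lay below every Control array with humanFGF2 (differences -0.33 and -0.40, adjusted p = 0.000215 and 7.97e-05) and overlapped Control with F2V2 (-0.13 and -0.09). The direct differences of the ligands were -0.20 for Sdc3 and -0.30 for Sdc4 (adjusted p = 0.0205 and 0.00227). With humanFGF2, Sdc1 and Sdc2 thus lay above Control and Sdc3 and Sdc4 below it, with only Sdc1 past 1.4-fold. All 4 passed the adjusted p alone, as did 46.0% of all tested clusters.

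Of the 3 glypicans, which hold heparan sulfate on the membrane through a lipid anchor, 2 were called lower with humanFGF2 (beside 8.72% of all tested clusters) and none with F2V2 (beside 3.64%), in which Gpc4 alone passed the adjusted p, as did 33.5% of all tested clusters. Gpc4 read 8.53, 8.54, 8.43 and 8.50 in humanFGF2 arrays, 8.66, 8.65, 8.83 and 8.72 in F2V2 arrays and 9.01, 9.00, 9.09 and 9.08 in Control arrays. Both ligands lay below every Control array, by 1.46-fold with humanFGF2 (adjusted p = 1.73e-06) and by 1.26-fold with F2V2 (adjusted p = 0.000334, not called). Gpc3 read 9.46, 8.98, 8.87 and 8.94 in humanFGF2 arrays, 9.23, 9.02, 9.21 and 9.62 in F2V2 arrays and 9.53, 9.59, 9.86 and 9.26 in Control arrays. These groups overlapped, and the call at -0.50 with humanFGF2 (adjusted p = 0.0181) was lost without Control replicate 2 (-0.48), Control replicate 3 (-0.40), humanFGF2 replicate 2 (-0.47), humanFGF2 replicate 3 (-0.43) or humanFGF2 replicate 4 (-0.46). Gpc2 differed by -0.09 with humanFGF2 and -0.12 with F2V2.

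Has2, the main inducible hyaluronan synthase, was the single one of the 3 synthases above the dim floor. It read 8.23, 7.75, 7.59 and 7.65 in humanFGF2 arrays, 7.08, 7.10, 7.01 and 6.91 in F2V2 arrays and 6.04, 5.99, 6.29 and 5.92 in Control arrays. The groups did not overlap. Has2 was 3.35-fold higher with humanFGF2 (adjusted p = 8.57e-08) and 1.95-fold higher with F2V2 (adjusted p = 5.46e-05), with a direct difference of 0.78 (adjusted p = 0.000558).

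The direct comparison of humanFGF2 with F2V2 gave the genes in which these ligands differed. They are preparations of different suppliers, so an effect of the truncation and one of the preparation cannot be told apart. Of the 52 genes, 3 were called higher with humanFGF2 and 5 lower, or 15.4%, against 5.75% of all tested clusters (2.86% higher and 2.89% lower). The 3 were Sdc1, Has2 and Chst3, and the 5 were Papss2, Chst9, Chst7, Extl1 and Sulf1. For Sdc1, Has2, Chst3, Papss2, Chst9 and Extl1 the humanFGF2 mean lay further from Control than the F2V2 mean, on the same side of it. For Chst7 and Sulf1 the humanFGF2 mean lay below Control and the F2V2 mean above it. By contrast, Xylt1, Ndst3, Ndst4 and Hs3st3b1 gave log2 differences between the ligands of -0.22 to 0.00, with 95% intervals that reached no further than -0.42 and 0.16.

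**Figure D3:**
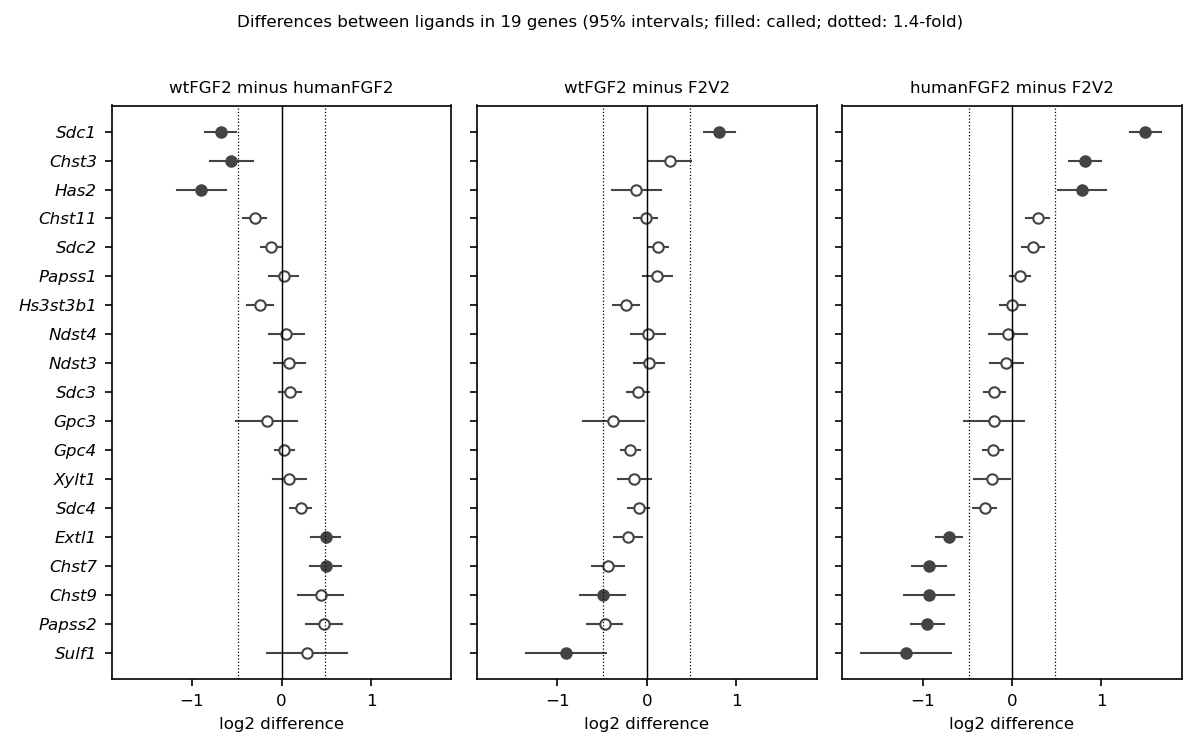
Log2 differences (horizontal axis) of wtFGF2 minus humanFGF2, wtFGF2 minus F2V2 and humanFGF2 minus F2V2 for 19 genes with 95% intervals (filled: called, dotted lines: 1.4-fold). Sdc1 has the most positive value (1.49) and Sulf1 the most negative (-1.19) in humanFGF2 minus F2V2, and for Sdc1 wtFGF2 lies -0.68 from humanFGF2 and 0.81 from F2V2.

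With wtFGF2, 5 of the 52 genes rose and 7 fell against Control, or 23.1%, against 13.1% of all tested clusters (6.99% higher and 6.10% lower), in a fit over all 16 arrays. The genes that rose were Sdc1, Chst3, Has2, Chst11 and Xylt1, and those that fell were Papss2, Chst9, Extl1, Hs3st3b1, Gpc3, Ndst4 and Gpc4. Papss2 read 6.90, 7.16, 7.25 and 7.31 in wtFGF2 arrays, a 5.98-fold fall from Control (adjusted p = 3.61e-12). Sdc1 read 9.16, 9.13, 9.41 and 9.28 in wtFGF2 arrays, a 3.51-fold rise (adjusted p = 5.88e-11). For both genes the wtFGF2 values fell between those of humanFGF2 and F2V2 without overlap. The wtFGF2 mean lay between the humanFGF2 and F2V2 means in 29 of the 52 genes (55.8%), beside 50.8% of all tested clusters, so a place between the ligands was about as common among the 52 genes as elsewhere.

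Against humanFGF2, wtFGF2 was called higher in 2 genes and lower in 3, or 9.62%, against 1.93% of all tested clusters (0.690% higher and 1.24% lower). Has2 read 6.59, 6.97, 6.98 and 7.09 in wtFGF2 arrays, 0.90 below humanFGF2 on the log2 scale (difference -0.90, adjusted p = 0.0003), and overlapped the F2V2 range. Sdc1 differed by -0.68 (adjusted p = 5.98e-05). Chst3 read 7.50, 8.06, 7.87 and 8.12 and differed by -0.56 (adjusted p = 0.0049), but by -0.43 without wtFGF2 replicate 1, which was under 1.4-fold. The 2 that were higher were at the fold threshold. Extl1 read 6.98, 7.06, 7.30 and 7.00 in wtFGF2 arrays (difference 0.49, adjusted p = 0.000472), and its call was lost without humanFGF2 replicate 1 (0.48), humanFGF2 replicate 2 (0.46) or wtFGF2 replicate 3 (0.42). Chst7 read 8.51, 8.52, 8.61 and 8.39 in wtFGF2 arrays, 0.12 from Control (adjusted p = 0.289) and 0.49 above humanFGF2 (adjusted p = 0.00115), and its call was lost without humanFGF2 replicate 3 (0.44) or wtFGF2 replicate 3 (0.46). Papss2, at 0.47, was called when humanFGF2 replicate 1 (0.50), humanFGF2 replicate 4 (0.52) or wtFGF2 replicate 1 (0.56) was left out. Without wtFGF2 replicate 3, 3 genes were called in place of 5.

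Against F2V2, wtFGF2 was called higher in 1 gene and lower in 2 of the 52, against 0.519% higher and 0.885% lower among all tested clusters. Sdc1 was the higher one (difference 0.81, adjusted p = 3.01e-05). Sulf1 read 8.04, 8.06, 7.85 and 8.07 in wtFGF2 arrays and differed from F2V2 by -0.91 (adjusted p = 0.0219), and Chst9 read 5.61, 5.63, 5.60 and 5.76 and differed by -0.49 (adjusted p = 0.0281). Sulf1 lost its call without wtFGF2 replicate 3 (-0.85, adjusted p = 0.0634), and Chst9 lost its call without any 1 of wtFGF2 replicates 1, 2 and 3 or F2V2 replicates 1, 3 and 4 (-0.50 to -0.43). Papss2, at -0.47, was called without wtFGF2 replicate 3 (-0.50), wtFGF2 replicate 4 (-0.52) or F2V2 replicate 2 (-0.54), and Chst7, at -0.43, without F2V2 replicate 4 (-0.51). Sulf1 in wtFGF2 arrays differed from Control by -0.49 (adjusted p = 0.079), and was called without Control replicate 4 (-0.64) or F2V2 replicate 4 (-0.49, adjusted p = 0.0188).

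In the remaining genes called against Control, wtFGF2 was not called against either of the other ligands. Chst11 read 10.60, 10.78, 10.68 and 10.75 in wtFGF2 arrays (difference from Control 0.80, from F2V2 -0.01 and from humanFGF2 -0.30, adjusted p = 0.00463, under 1.4-fold), and Xylt1 read 10.70, 10.84, 10.68 and 10.85 (0.76 from Control). Both lay above every Control array. Ndst4 read 6.92, 7.13, 7.01 and 6.99 (-0.60 from Control), Ndst3 read 8.03, 8.24, 8.19 and 8.13 (-0.42, not called) and Gpc4 read 8.50, 8.51, 8.53 and 8.58 (-0.52 from Control, and -0.19 from F2V2, adjusted p = 0.048, with no overlap). Hs3st3b1 read 8.17, 8.16, 8.22 and 7.96 and lay below humanFGF2, F2V2 and Control arrays alike (-0.73 from Control, and -0.24 from humanFGF2, adjusted p = 0.0404). Gpc3 read 8.82, 8.71, 8.78 and 9.28 (-0.66 from Control, adjusted p = 0.00304), and its replicate 4 overlapped Control. Papss1 read 10.53, 10.79, 10.83 and 10.42 in wtFGF2 arrays, Sdc2 read 11.63, 11.67, 11.63 and 11.62, Sdc3 read 11.12, 11.16, 11.27 and 11.05, and Sdc4 read 10.54, 10.55, 10.62 and 10.60, none of them called against Control. Papss1, Sdc3 and Sdc4 still lay apart from Control, by 0.33, -0.23 and -0.18 (adjusted p = 0.00221, 0.00397 and 0.0141), under 1.4-fold.

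Of 41 listed genes of the pathway outside the symbol families 24 were measured, and 2 rose and 1 fell with humanFGF2, beside 19.1% of all tested clusters called in either direction. The 2 that were called with F2V2 both rose, beside 9.38% of all tested clusters called. Cd44, the cell surface receptor of hyaluronan, was 2.64-fold higher with humanFGF2 (adjusted p = 2.1e-08) and 2.47-fold higher with F2V2 (adjusted p = 1.59e-07), with a direct difference of 0.09 (adjusted p = 0.498). Hyal2, a hyaluronidase of the cell surface, was 2.09-fold higher with humanFGF2 and 1.67-fold higher with F2V2. With Has2, a synthase, a receptor and a hydrolase of hyaluronan thus rose with both ligands, but these are named because they were called. In the comparisons with Control, the 24 measured genes were called no more often than all tested clusters. Has1 and Has3 were dim and not called, and Hyal1, Hyal3, Cemip and Tmem2 were not measured. Slc26a1, a sulfate transporter, fell 1.44-fold with humanFGF2 (adjusted p = 0.000282) and differed by -0.28 with F2V2. With wtFGF2, Cd44 and Hyal2 rose 2.48-fold and 1.77-fold.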

How the data were processed

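The authors hybridised biotin-labelled RNA to Affymetrix rat gene arrays and deposited log2 values normalized with GCRMA and summarised in Partek 6.6, per the labels, as a table of 36685 transcript clusters by 16 arrays. The genome build behind the probes is not given in the sources used here. The 16377 clusters named by the platform annotation (15653) or, where it named none, by the annotation of the study (724) were tested with limma 3.58.1 in R 4.3.3 (lmFit, eBayes), over the 12 humanFGF2, F2V2 and Control arrays, or all 16 for wtFGF2. Calls needed a Benjamini-Hochberg adjusted p under 0.05 and at least 1.4-fold. The number of arrays limits the precision, with a median residual SD of 0.11 on the log2 scale. The script was tested on simulated data. Genes named are the members, with array values for those called in any comparison and for the Papss and syndecan genes, and listed pathway genes called against Control. Members and lists were chosen with earlier results of these data known. The alternatives tried were fold thresholds, tested clusters, a dim filter, normalization, the variance prior, the groups in the fit, a replicate block and leaving out arrays. As each member had 1 cluster, averaging clusters changed nothing and was not run.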

Additional observations from a re-analysis of the deposited data

Results flagged for a closer look

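In groups of 4 arrays, 1 array stood far from the other 3 in 6 of 76 groups examined, where chance gives about 1 in 20. Chst11 read 11.07 in humanFGF2 replicate 3, with the others at 10.98 to 10.99. Chst9 read 5.76 in wtFGF2 replicate 4 (others 5.60 to 5.63) and 7.14 in Control replicate 4 (others 7.49 to 7.56). Sulf1 read 7.85 in wtFGF2 replicate 3 (others 8.04 to 8.07), Sdc2 read 11.67 in wtFGF2 replicate 2 (others 11.62 to 11.63), and Ndst3 read 8.39 in Control replicate 2 (others 8.61 to 8.65).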

How the results depend on the processing

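Counts of called genes were recomputed under each alternative. At a fold threshold of 2 they were 7 for humanFGF2 minus Control, 3 for F2V2 minus Control, 2 for humanFGF2 minus F2V2, 5 for wtFGF2 minus Control and 0 for both wtFGF2 minus humanFGF2 and wtFGF2 minus F2V2 by limma, in which 20 and 16 genes had an unadjusted p under 0.05. With no fold threshold they were 36, 25, 24, 27, 12 and 7 in the same order, so the fold threshold sets most counts. For wtFGF2 minus F2V2, testing all transcript clusters or using plain ANOVA contrasts left 1 in place of 3. Leaving out each array gave 12 to 14, 10 to 11, 8 to 8, 12 to 13, 3 to 6 and 2 to 4.

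The replicate numbers did not pair the arrays: 2 of 24 same-number pairs had deviations correlated over 0.1 (range -0.17 to 0.22) and 2 arrays correlated best with their own number. With the replicate number as a block the counts were 14, 11, 8, 12, 5 and 2. Of 2661 recomputed differences 2611 kept their side of the threshold, 17 of them with a turned sign while not called, 36 lost and 14 gained a call, and 0 called values turned sign. Beyond the arrays named above, Gpc3 with humanFGF2 missed the threshold under plain ANOVA contrasts (adjusted p = 0.0511), as did Chst9 and Sulf1 in wtFGF2 minus F2V2 (0.0677 and 0.0654) and, over all transcript clusters, 0.0711 and 0.059. That Sulf1 call was also lost with only the 2 groups in the fit (0.0571) or the replicate block (0.0508), and that of Chst9 under quantile normalization (-0.48, under 1.4-fold). Calls were gained by Sulf1 in wtFGF2 minus Control with only the 2 groups (0.0235), by Ndst3 with F2V2 under quantile normalization (-0.50) and by Papss2 in wtFGF2 minus humanFGF2 with array medians subtracted (0.50). The cause was not tested. No transcript levels of single cell types and no protein were measured.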
